A study of Mus musculus with 5 samples.

Results

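The miR-181 family is a set of 4 closely related microRNAs (miRNAs), and its members were taken as the array probes named exactly mmu-miR-181a, mmu-miR-181b, mmu-miR-181c and mmu-miR-181d (mmu, for mouse, is left out below). They are 4 of the 569 mouse miRNA probes on the array. All 4 passed the filter on dim probes. The study measured hippocampal miRNAs of Met/Met and Val/Val mice aged 8 weeks, of strain 129/Sv. Both genotypes are knock-ins of human BDNF, the gene of brain-derived neurotrophic factor, which neurons secrete and which shapes synapses, and they carry methionine or valine at its common variant site. Each of 5 two-colour arrays, labelled as biological replicates, held the Cy3-labelled RNA of 1 Met/Met mouse and the Cy5-labelled RNA of 1 Val/Val mouse, 10 mice in all. Dyes were never exchanged, so dye and genotype cannot be told apart. The intensity columns are headed Test and Cntrl, with no word in headers or labels on the genotype in either. Every ratio below is Test over Cntrl on the log2 scale, and which genotype is higher cannot be read from its sign.

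MiRNAs are short RNAs that guide Argonaute proteins to messenger RNAs, mainly through the seed, bases 2 to 8 from the 5′ end, and lower the output of those messages. The miR-181 family is best known from lymphocyte development, where miR-181a tunes the sensitivity of T cell receptor signalling by repressing phosphatases. It is also abundant in brain. In cultured hippocampal neurons of rat, miR-181a has been described in dendrites as a repressor of the AMPA receptor subunit GluA2.

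The array's target sequences are shown because the members differ from each other by so few bases. Capitals mark the seed.
miR-181a: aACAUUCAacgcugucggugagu
miR-181b: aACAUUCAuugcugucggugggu
miR-181c: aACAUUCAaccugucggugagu
miR-181d: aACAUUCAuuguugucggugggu
All 4 share the seed, and no other of the 569 probes has it. Counted from 1 at the 5′ end, with the base of the first-named miRNA first, miR-181b differs from miR-181a by A9U, C10U and A21G. MiR-181d differs from miR-181b by C12U alone. MiR-181c lacks the base at position 11 of miR-181a and is otherwise the same, so it is 22 bases long where the others have 23. The nearest probe outside the family lies 7 or more edits away from each member (7 for miR-181c and miR-338-5p). The sequences of miR-181a, miR-181c and miR-181d matched RefSeq entries exactly, and RefSeq's miR-181b-5p has 24 bases.

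The mature miRNAs come from 6 hairpins in 3 clusters (GRCm38.p6). Mir181a-1 (chr1:137966455-137966541) and Mir181b-1 (chr1:137966639-137966718) lie 97 bases apart on the plus strand. Mir181a-2 (chr2:38852735-38852810) and Mir181b-2 (chr2:38853830-38853918) lie 1019 bases apart on the plus strand. Mir181d (chr8:84178716-84178787) and Mir181c (chr8:84178873-84178961) lie 85 bases apart on the minus strand. RefSeq gives the same miR-181a-5p for both of its hairpins, so the array cannot tell which locus made miR-181a or miR-181b. Thus miR-181a and miR-181b are cluster partners, as are miR-181c and miR-181d, while the closest sequences are miR-181b with miR-181d and miR-181a with miR-181c.

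Every array carried 6 spots per miRNA. Empty spots had medians of 31.4 to 45.7 intensity units in Test and 208 to 361 in Cntrl. Mismatch controls, which read unspecific binding, had 95th percentiles of 77.8 to 209 in Test and 379 to 464 in Cntrl. Of 8 listed names of brain neuron markers 6 were on the array, among them miR-124 and miR-9. All 6 lay above the mismatch controls (over their 95th percentile in either column, on 3 or more arrays). The listed names miR-128a and miR-128b were not on the array, and its probe miR-128, also above those controls, was not part of the lists. The 4 pluripotency miRNAs of the miR-302 cluster were not above the mismatch controls. The liver marker miR-122 and all 4 listed striated muscle markers were above them, so this line did not separate brain markers from those of other tissues. The summed intensity of the 6 neuron markers ran from 139048 to 179545 in Test and from 149450 to 175987 in Cntrl. Over the 568 miRNAs tested, the ratios of replicate 3 correlated negatively with those of replicate 5 (Pearson r = −0.56) and replicate 1 (r = −0.30). They correlated positively with those of replicate 2 (r = 0.25) and replicate 4 (r = 0.17), all given as a description across miRNAs. The labels name the same dyes for every array, so the ratios of replicate 3 are used as deposited, but whether its columns were exchanged relative to the other arrays was not tested, and the meaning of its signs is in doubt to that extent. The members' means, their pair differences and the medians of the synaptic and lymphoid lists are therefore also given without it or with its sign turned. P-values measure the spread between these 5 pairs of mice, and the number of arrays limits their precision.

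None of the 4 members passed the test between the columns, and each mean ratio was smaller than its SD between arrays. MiR-181a, miR-181b and miR-181d were bright in both columns, with mean ratios slightly below 0. MiR-181c was dim and had a mean ratio near 0. Of 568 miRNAs tested, 0 (0%) passed an adjusted p of 0.05 in limma, 9 (1.58%) passed at 0.10, and 110 (19.4%) had an unadjusted p below 0.05. The members gave 0 of 4 in each of these counts.

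MiR-181a, the member studied most in T cells and neurons, read 16247, 17301, 15129, 13148 and 10035 units in Test on replicates 1 to 5, against 17122, 18328, 14178, 13299.9 and 17835 in Cntrl. The columns overlapped, and the widest gap was on replicate 5, where Test was the lower one. In Test these values were 83.0 to 147 times the mismatch 95th percentile, and in Cntrl 32.5 to 45.2 times. After background correction and loess, the ratios were −0.05, −0.14, 0.11, −0.08 and −0.44. The mean of −0.12 ± 0.20 (SD, n = 5 arrays) equals 1.09-fold higher signal in Cntrl, with an adjusted p of 0.411 in limma and a 95% interval of −0.32 to 0.08. Replicate 5 held most of this mean, which was −0.04 without it, −0.18 without replicate 3 and −0.16 with the sign of replicate 3 turned.

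MiR-181b, the cluster partner of miR-181a, read 11030.5, 11508, 7428, 6577 and 5909 units in Test, against 10401, 12052, 10043, 7143 and 9575 in Cntrl. Test was the higher column on replicate 1 alone. These values were 55.2 to 75.9 times the mismatch 95th percentile in Test and 17.4 to 29.1 times in Cntrl. The ratios were 0.12, −0.12, −0.28, −0.08 and −0.13, with a mean of −0.10 ± 0.14 (SD, n = 5). The limma adjusted p was 0.382 and the 95% interval ran from −0.24 to 0.05. The mean was −0.05 without replicate 3 and turned to 0.01 with the sign of that replicate turned.

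MiR-181d, which differs from miR-181b by a single base, read 9229, 10256, 5345, 4489 and 4194 units in Test, against 9117, 10473, 8402, 5339 and 7671 in Cntrl. Both columns were close on replicates 1 and 2, and Test was the lower one on replicates 3, 4 and 5. The values were 49.2 to 55.4 times the mismatch 95th percentile in Test and 13.0 to 25.3 times in Cntrl. Its ratios were 0.06, −0.08, −0.42, −0.15 and −0.22. The mean of −0.16 ± 0.18 (SD, n = 5) was the lowest of the family and equals 1.12-fold higher signal in Cntrl. Its adjusted p was 0.271 in limma (unadjusted p = 0.064 in the same fit), with a 95% interval of −0.34 to 0.01 and rank 134 of 568 by p. The mean was −0.10 without replicate 3 and 0.0050 with its sign turned.

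MiR-181c, made from the same cluster as miR-181d, read 448, 519.5, 174, 131 and 103 units in Test, against 645, 729, 548, 462 and 580.5 in Cntrl. These readings were above the mismatch 95th percentile on all 5 arrays, by 1.33 to 2.69 times in Test and by 1.13 to 1.76 times in Cntrl. Before normalization the Cntrl column was the higher one on every array, and so was the median over all miRNA probes, whose uncorrected log2 ratio ran from −2.84 to −1.29. After loess the ratios were 0.23, 0.18, −0.09, 0.01 and −0.24, with a mean of 0.02 ± 0.19 (SD, n = 5), an adjusted p of 0.934 in limma and a 95% interval of −0.17 to 0.21. Its sign turned without replicate 1 (−0.04) and without replicate 2 (−0.02), and its mean was 0.05 both without replicate 3 and with the sign of that replicate turned.

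**Figure D1:**
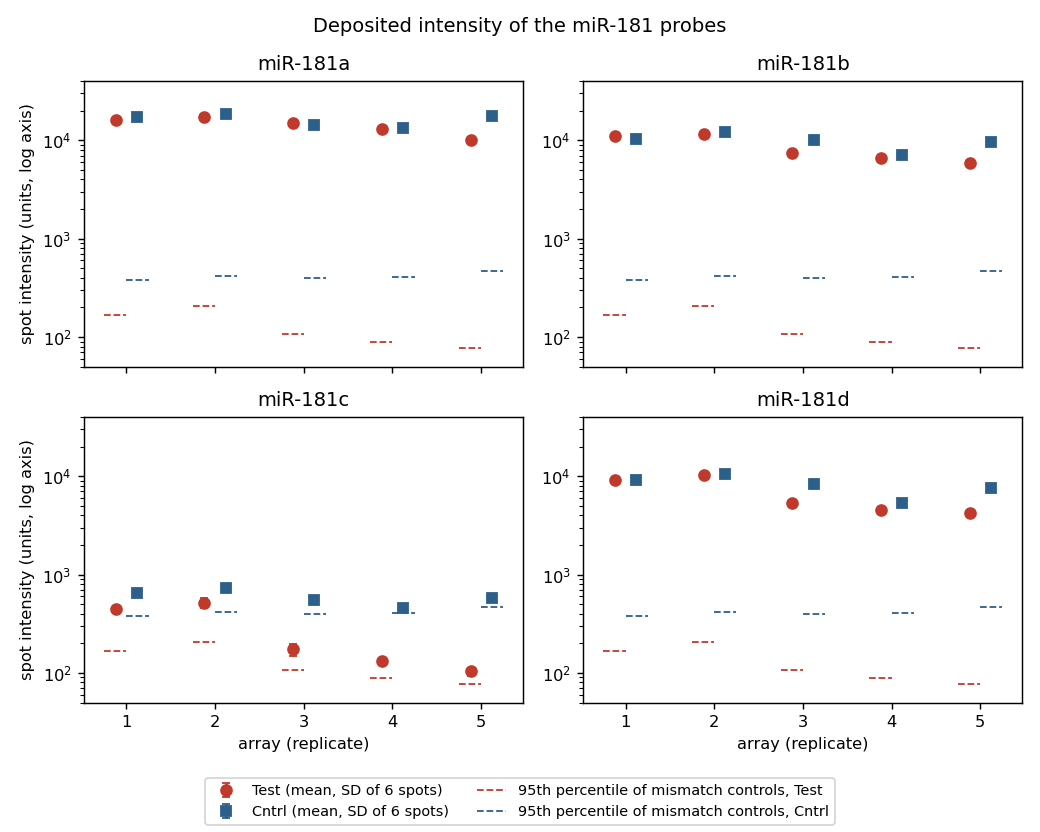
Deposited spot intensity (log axis) of the 4 members on each array, Test in red and Cntrl in blue, as the mean and SD of 6 spots, with dashed lines at the 95th percentile of the mismatch controls of each column. MiR-181a, miR-181b and miR-181d stand at least 13.0 times above their lines, and miR-181c between 1.13 and 2.69 times.

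**Figure D2:**
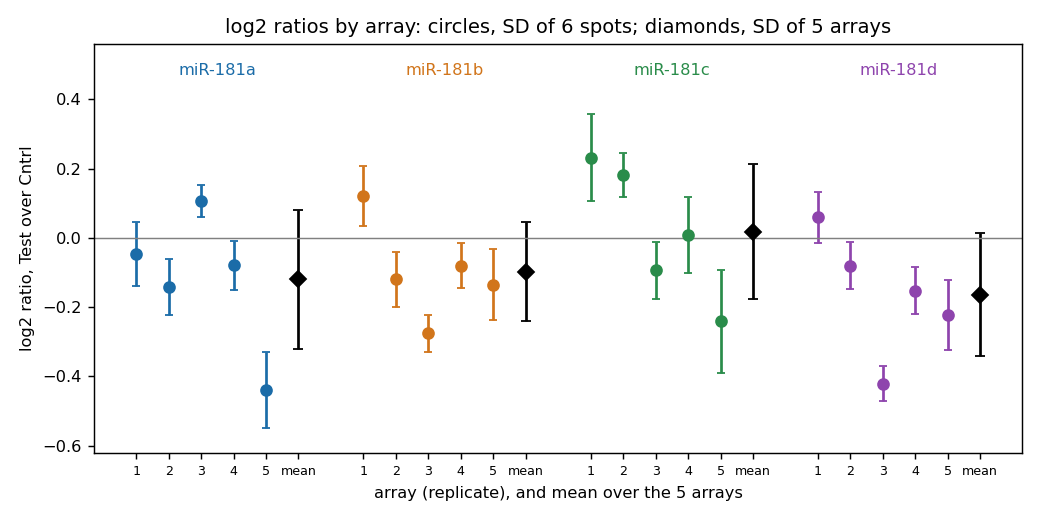
Log2 ratios of Test over Cntrl after loess for each member by array (circles, with the SD of 6 spots) and their mean over 5 arrays (black diamonds, with the SD between arrays). The mean of every member lies within 1 SD between arrays of 0, from −0.16 for miR-181d to 0.02 for miR-181c.

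The 20 ratios of the family split into 6 positive and 14 negative values, from −0.44 to 0.23. Replicate 1 had 3 positive members and replicate 5 had none. The mean of the 4 members was 0.09, −0.04, −0.17, −0.08 and −0.26 on replicates 1 to 5. By member means the family had 1 positive and 3 negative values and a mean of −0.09. This mean was −0.07 without replicate 3 and −0.02 with the sign of replicate 3 turned. The median over all 568 miRNAs was 0.0029, and 275 of them (48.4%) had negative means. None of the 4 members kept 1 sign on all 5 arrays, where 112 of 568 miRNAs (19.7%) did. The SD between arrays of 0.14 to 0.20 lay above the median of 0.12 over all miRNAs and below the 0.23 of the 142 brightest, to which miR-181a, miR-181b and miR-181d belong.

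The spread between arrays was larger than that between the 6 spots of a probe. The median SD over spots was 0.08 for miR-181a, 0.08 for miR-181b, 0.07 for miR-181d and 0.11 for miR-181c, which makes the SD between arrays 2.49, 1.80, 2.59 and 1.78 times as large. The spots sit in an upper and a lower block of the array, in rows 36 and 100 for miR-181a and up to rows 41 and 105 for miR-181d. The mean ratio of the blocks differed by −0.04 to 0.11 over the 20 member and array pairs, with a median size of 0.01.

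MiR-181b and miR-181d ran nearly in parallel over the arrays. Their difference, miR-181b minus miR-181d, was 0.06, −0.04, 0.15, 0.07 and 0.09 on replicates 1 to 5, a mean of 0.07 ± 0.07 (SD, n = 5). The root mean square difference of their 5 ratios was 0.09. Of the 567 other miRNAs tested, miR-181b was the closest to miR-181d by this measure, and miR-181d ranked 3 for miR-181b, behind miR-185 at first rank. Among the 317 other miRNAs above the mismatch controls these ranks were 1 and 2. Without replicate 3 the mean difference was 0.05 ± 0.06 (SD, n = 4), and the ranks of the 567 were 6 and 8. Whether the probes of these near-identical targets share signal was not tested.

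MiR-181a and miR-181c, also a single base apart, were farther from each other. Their difference, miR-181a minus miR-181c, was −0.28, −0.32, 0.20, −0.09 and −0.20, with a root mean square of 0.23. MiR-181c ranked 245 of 567 for miR-181a, whose median root mean square difference to all other miRNAs was 0.25. Among the 317 above the mismatch controls it ranked 95, with a median of 0.30. Without replicate 3 the mean difference was −0.22 ± 0.10 (SD, n = 4). MiR-181c was also the dim member, and the part of its low signal in this difference was not tested.

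The cluster partners miR-181a and miR-181b went apart on replicates 3 and 5. On replicate 3 miR-181a was 0.38 above miR-181b, and on replicate 5 it was 0.30 below it, so the mean difference was −0.02 ± 0.26 (SD, n = 5). On replicate 3 all 6 spots of miR-181a were positive, from 0.05 to 0.16, and all 6 of miR-181b negative, from −0.35 to −0.20. MiR-181b ranked 243 of 567 for miR-181a, and 94 of the 317 above the mismatch controls. Without replicate 3 the mean difference was −0.12 ± 0.14 (SD, n = 4), and those ranks were 81 and 43. In the other direction miR-181a ranked 292 and 96 for miR-181b, and 281 and 80 without replicate 3. The partners miR-181c and miR-181d differed by 0.18 ± 0.13, with miR-181c the higher one on 4 of 5 arrays, and miR-181d ranked 249 of 567 for miR-181c, and 76 of the 317. Without replicate 3 the difference was 0.14 ± 0.12 (SD, n = 4), and those ranks were 91 and 36. The other way round, miR-181c ranked 118 and 31 for miR-181d, and farther off at 238 and 71 without replicate 3. The pairs miR-181b with miR-181c and miR-181a with miR-181d are each 4 edits apart and from different clusters. Their root mean square differences were 0.18 and 0.26, against 0.23 and 0.22 for the cluster partners in the order above. Without replicate 3 they were 0.17 and 0.13, against 0.17 and 0.18. These are descriptions over 5 arrays, without a test.

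**Figure D3:**
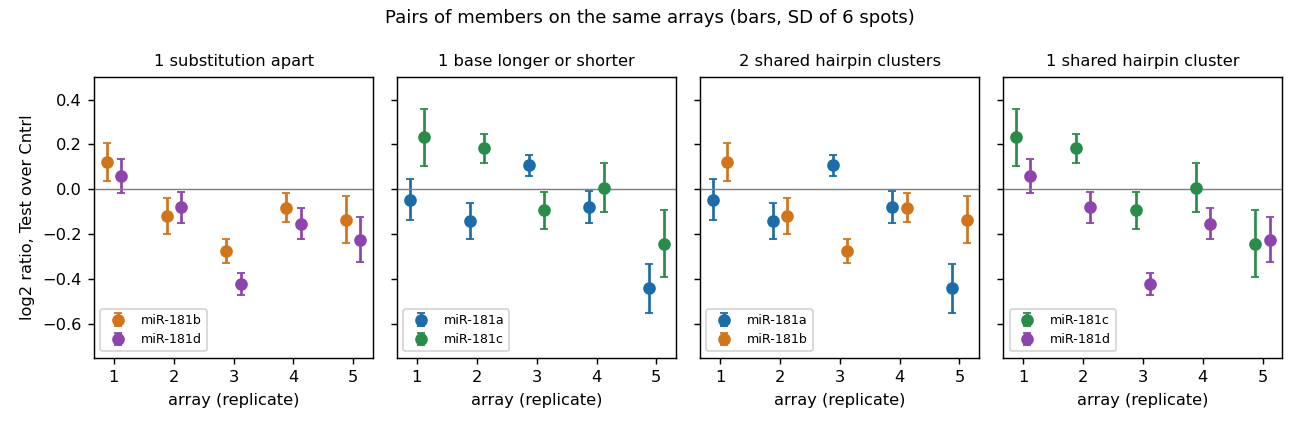
Log2 ratios of Test over Cntrl of 2 members on the same 5 arrays, with the SD of 6 spots as bars. MiR-181b and miR-181d stay within 0.15 of each other, while miR-181a and miR-181c differ by up to 0.32 in size, miR-181a and miR-181b by up to 0.38 and miR-181c and miR-181d by up to 0.33.

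Among the 314 other miRNAs above the mismatch controls, those with the smallest root mean square difference from the mean profile of the family were miR-185 (0.09), the neuronal miR-128 (0.10), miR-652 (0.11), miR-491 (0.11) and miR-671-3p (0.11). The median over these 314 was 0.28. Their mean ratios ran from −0.13 for miR-128 to −0.07 for miR-671-3p, and their adjusted p in limma from 0.152 to 0.301.

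Of 7 names searched for the opposite strands of the hairpins, 2 were on the array, both from the Mir181a pair and both near background. Their sequences are shown because they bind other targets than the guide strands and carry other seeds, in capitals.
miR-181a-1*: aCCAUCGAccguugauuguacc
miR-181a-2*: aCCGACCGuugacuguaccuug
The array's miR-181a-1* equals RefSeq's miR-181a-1-3p, and miR-181a-2* is not identical with a RefSeq mature miRNA. Bases 2 to 8 of RefSeq's miR-181a-2-3p differ from those in capitals for miR-181a-2*, so the capitals do not mark the seed of that RefSeq strand. MiR-181a-1* read 61.8 to 172 units in Test and 412 to 464 in Cntrl, and was above the mismatch 95th percentile on 3 arrays in Test and 4 in Cntrl. MiR-181a-2* read 45.7 to 118 units in Test and 354 to 414 in Cntrl, below that percentile in both columns on all 5 arrays. Their mean ratios were −0.02 ± 0.06 and −0.08 ± 0.05 (SD, n = 5), with adjusted p of 0.815 and 0.233 in limma. MiR-181a-2* was negative on 4 of 5 arrays (unadjusted p = 0.039 in the same limma fit). No statement on the share of guide and opposite strand follows, because levels of different probes are not comparable.

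Direction depended on how the arrays were normalized. With each array centred on its median in place of loess, miR-181a stood at 0.56 (limma adjusted p = 0.032), miR-181b at 0.51 (adjusted p = 0.0060) and miR-181d at 0.41 (adjusted p = 0.0093), all past the threshold and higher in Test, while miR-181c stood at 0.07 (adjusted p = 0.649). In that setting ratios rose with brightness over the whole array. The 142 brightest miRNAs had a median of 0.60 and 140 positive means, and the next groups of 142, from bright to dim, had medians of 0.07, −0.09 and −0.17. The 3 bright members lay below the median of the 142 brightest in that setting, and also with loess, where that median was −0.0010. In all, 248 of 568 miRNAs passed with median centring, and the part of the brightness trend in the members' calls was not tested. In the authors' deposited series table, normalized in a way not given in the sources used here, miR-181a averaged −0.15 ± 0.16, miR-181b −0.13 ± 0.15, miR-181c −0.03 ± 0.27 and miR-181d −0.21 ± 0.17 (SD, n = 5), with miR-181d negative on 5 of 5 arrays. None passed in limma on that table, with adjusted p from 0.320 for miR-181d to 0.891 for miR-181c.

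**Figure D4:**
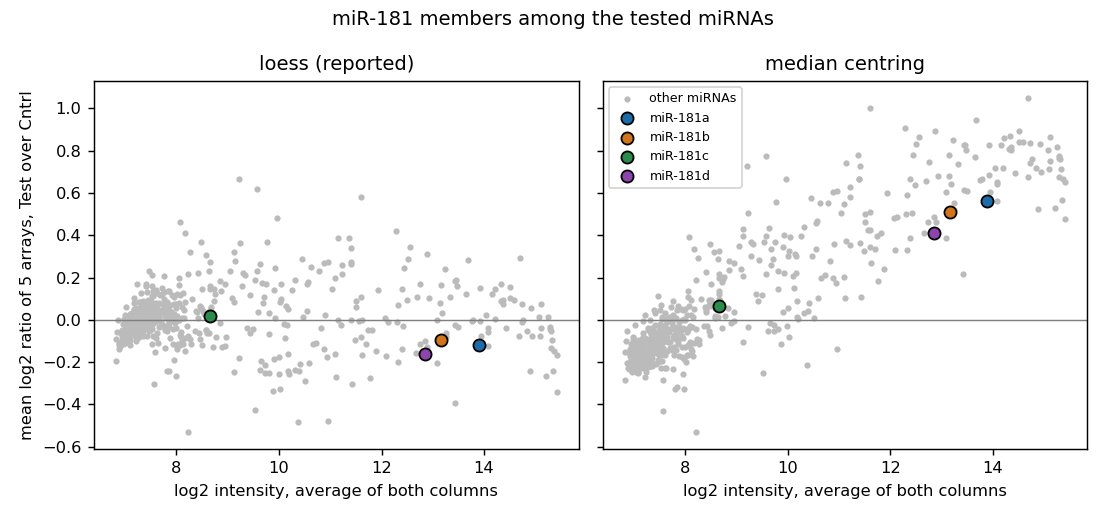
Mean log2 ratio of Test over Cntrl against log2 intensity for the 568 miRNAs tested (grey), with the members in colour, after loess on the left and with median centring on the right. With median centring ratios rise with intensity, and miR-181a, miR-181b and miR-181d move from between −0.16 and −0.10 to between 0.41 and 0.56.

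**Figure D5:**
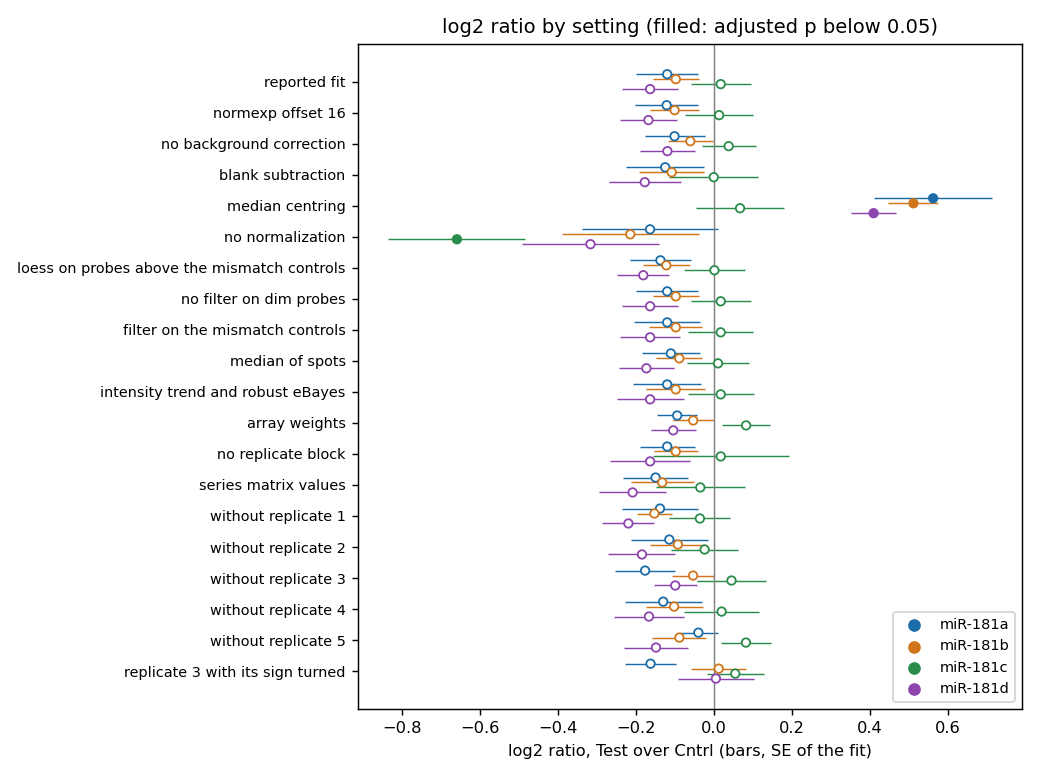
Log2 ratio of each member under the reported fit and 19 alternatives, with the SE of the fit as bars and filled points at an adjusted p below 0.05. Filled points appear with median centring (miR-181a, miR-181b and miR-181d, above 0) and with no normalization (miR-181c, at −0.66).

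Other miRNAs of the settings in which the family is known gave no member past the test. Of 17 listed names of synaptic and dendritic miRNAs, 15 were on the array. MiR-128a and miR-128b were not, and the array's miR-128 (mean −0.13, negative on 5 of 5 arrays) was not counted. The 15 had 4 positive and 11 negative means, a median of −0.10 and 0 past an adjusted p of 0.05. MiR-219, among the negative means at −0.15, was not above the mismatch controls. Of the 15, 5 had an unadjusted p below 0.05. The list thus had 73.3% negative means and 33.3% at that unadjusted p, where all 568 miRNAs had 48.4% and 19.4%. The median was −0.09 without replicate 3 and −0.04 with its sign turned. The synaptic list was led by the neural miR-9 at −0.17 ± 0.07 (adjusted p = 0.135 in limma), miR-125b-5p at −0.24 ± 0.22, the neuronal miR-218 at −0.08 ± 0.04 and the CREB-induced miR-132 at 0.16 ± 0.14. The list named lymphoid held 12 miRNAs, 8 of them above the mismatch controls. As a set they are not specific to lymphoid cells, and they include the myeloid miR-223. They had 12 positive means, a median of 0.11 and 0 past the adjusted threshold, with 2 at an unadjusted p below 0.05. Of all 568 miRNAs 51.6% had positive means, and the 2 of 12 (16.7%) compare with 19.4% of all. The median was 0.15 without replicate 3 and 0.13 with its sign turned, where 11 means were positive. The smallest p of the lymphoid list belonged to miR-146b, a regulator of innate immune signalling, at 0.27 ± 0.10 (adjusted p = 0.078), to the lymphocyte miR-150 at 0.28 ± 0.27, to the myeloid miR-223 at 0.21 ± 0.25 and to miR-146a at 0.14 ± 0.17. MiR-155, miR-142-3p, miR-142-5p and miR-223 were not above the mismatch controls. The family's own 3 bright members had means below 0, as the synaptic median was, a description of 3 values without a test. MiR-181c had a mean of 0.02. With the sign of replicate 3 turned, miR-181b (0.01) and miR-181d (0.0050) stood above 0 and miR-181a stood at −0.16. With median centring both list medians were above 0, at 0.57 for the synaptic and 0.53 for the lymphoid list.

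Some markers of blood and muscle cells had wider ratios over the arrays than the family, and others did not. The red blood cell miR-451 had ratios from −0.32 to 1.25 and the striated muscle miR-1 from −1.04 to 2.26, while the red blood cell miR-144 stayed between −0.08 and 0.07. The summed intensity of the 3 red blood cell miRNAs ran from 3198 to 14170 in Test and from 4491 to 9840 in Cntrl, with miR-144 not above the mismatch controls. The 5 myeloid and lymphoid markers summed to between 11410 and 17780 in Test and between 11244 and 15739 in Cntrl, with 1 of them, miR-150, above the mismatch controls. The part of such cells in the ratios of the miR-181 members was not tested, and in whole tissue fewer cells of a type and less of a miRNA per cell cannot be told apart.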

How the data were processed

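Each of 5 two-colour arrays measured small RNA from the hippocampi of 1 Met/Met mouse and 1 Val/Val mouse. Per the labels, RNA was extracted with mirVana. Per the file headers, the authors deposited the mean linear intensity of each spot in a Test and a Cntrl column, and the background intensity is 0 in every row. The deposited series table holds log2 values whose normalization is not given in the sources used here. Against the ratios computed here, its 5 columns had slopes of 1.10 to 1.18 over the 318 brighter probes, and medians of −0.05 to −0.02. It therefore has the log2 scale and runs as Test over Cntrl, while its centring method and genotype direction stay unknown.

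Intensities were corrected with normexp (offset 50) and normalized by loess within arrays with control spots at weight 0, and the 6 spots of a probe were averaged. Ratios were fitted with limma 3.58.1 (R 4.3.3, eBayes, two-sided), with Benjamini-Hochberg adjustment over 568 of 569 miRNAs that read above 95% of the 266 empty spots in either column on 3 or more arrays. The mismatch controls are the 136 spots whose names carry MM-20B, 2M05 or 2M10, read here as mismatch versions of control probes. Sequences and coordinates are RefSeq's for GRCm38.p6 unless given as the array's. Figures were drawn with matplotlib 3.10.9. The members were fixed by name. The other miRNAs named are the hairpins' other strands, the 5 closest to the family's mean profile, and up to 4 of each list with the smallest p. MiR-338-5p (nearest sequence), miR-124 and the miRNAs of the synaptic and lymphoid lists at or below the mismatch controls were named outside this rule, after their values were seen. Members, lists and rules were chosen with earlier results of these data known, and replicate 3 with its sign turned, or left out of pairs and lists, was added after seeing the data.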

Additional observations from a re-analysis of the deposited data

How the results depend on the processing

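Each member's ratio was recomputed under 19 alternatives. MiR-181a kept its direction and stayed past no threshold in 18, miR-181b and miR-181d in 17 each, and miR-181c in 14. Median centring gave 0.56 for miR-181a, 0.51 for miR-181b and 0.41 for miR-181d. With the sign of replicate 3 turned, miR-181b stood at 0.012 and miR-181d at 0.0050. MiR-181c stood at −0.00041 with blank subtraction, at −0.66 with no normalization (limma adjusted p = 0.00028), where the median of all miRNAs was −0.77, and at −0.035 with the series matrix values. Leaving out 1 array gave −0.18 to −0.04 for miR-181a, −0.15 to −0.05 for miR-181b, −0.036 to 0.082 for miR-181c and −0.22 to −0.10 for miR-181d. Replicate 5 set the low end of miR-181a's size, and replicate 3 that of miR-181b and miR-181d. The sign of miR-181c turned without replicate 1 (−0.036) and without replicate 2 (−0.02). The count of miRNAs past an adjusted p of 0.05 was 0 in the reported fit, 248 with median centring, 442 with no normalization, 21 with array weights, 4 with robust eBayes and a variance trend, and 2 each with normexp offset 16 and the series matrix values. It ran from 0 to 5 when 1 array was left out, with 5 reached without replicate 3, and was 9 at a threshold of 0.10. The cause was not tested, except that the 0.10 threshold is looser by construction. Without the replicate block (columns fitted as separate samples) the count was 0, and the adjusted p of the members ran from 0.598 to 0.999. With 5 arrays, the SE of the reported fit was 0.06 to 0.08 for the members, so small differences could be missed. No size of the smallest measurable difference is given here. For miR-181c the signal near the mismatch controls was a further limit.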
